A study of Homo sapiens and Mus musculus with 61 samples.

Results

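The regions examined here were those of the dCas9 occupancy tables that lie near 8 genes known as regulators of erythroid gene expression and globin switching: KLF1, NFE2, BACH1, NFE2L1, BCL11A, ZBTB7A, MYB and RUNX1. A region belonged to a gene when the nearest protein-coding transcription start, measured from the centre of the region, was that gene's and lay within 10 kb (GENCODE release 44 on hg19). Of the 143198 regions listed over 17 tables, 31 met this rule, at 10 separate places in the genome. They covered 6 of the 8 genes, with 21 regions for BACH1, 3 for KLF1, 3 for RUNX1, 2 for NFE2L1, 1 for NFE2 and 1 for ZBTB7A. BCL11A and MYB had none. By comparison 12375 of 19401 protein-coding genes (63.79%) had a region within 10 kb in some table.

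KLF1 is the erythroid Krüppel-like factor, which binds CACCC boxes and activates the adult β-globin gene HBB. NFE2 is the large subunit of the erythroid bZIP factor that pairs with a small MAF protein at the hypersensitive sites of the β-globin locus control region, and NFE2L1 is a related partner of the small MAF proteins. BACH1 is a heme-sensing repressor that competes for the same MAF recognition elements. BCL11A and ZBTB7A (LRF) repress the fetal γ-globin genes, MYB maintains erythroid progenitors and γ-globin silencing, and RUNX1 is a haematopoietic transcription factor with a distal and a proximal promoter. All 8 are studied as regulators of the globin locus, whereas here it is the DNA of their own genes that was read out.

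In the CAPTURE method a biotinylated, catalytically dead Cas9 is brought to a locus by a single guide RNA and recovered with streptavidin, and ChIP-seq of the recovered DNA shows where dCas9 sat. The cells were K562, an established human erythroleukaemia line that expresses fetal globins and little HBB. The guides are named for HS1, HS2, HS3, HS4 and HS5 of the locus control region, for 3'HS1, HBB and HBG, and for a site labelled HBD-1kb. A name ending in sg2 marks another guide for the same site, and sgHS1-5 is named for the HS sites together. Every table set 1 guide, or the pool sgHS1-5, against the non-targeting guide sgGal4, whose libraries carry dCas9 as well. There were 42 guide libraries and 4 sgGal4 libraries. The pool sgHS1-5 had 6 libraries, sgHS2 had 5, sgHBG had 4, and sgHS5 and sgHS3 had 3 each. Only 1 library each stood for sgHS3-sg2, sgHS2-sg2 and sgHBB, and 2 for every other guide. The 4 sgGal4 libraries were shared by all 17 tables, so the tables are not independent of each other. The labels do not say that replicates came from separate cultures, so a p-value here reflects the scatter of libraries alone, and that scatter may be technical.

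The tables listed 4217 to 16890 regions of 300 bp. Guide libraries held 7127 to 432553 reads in listed regions. Replicates 1 and 2 of sgGal4 held 41128 to 169968, and replicates 3 and 4 only 6499 to 18647. The reads of sgGal4 replicates 1 and 2 differed by less than the sampling noise in 15 of 17 tables, and the pair was counted as 1 sample, leaving n = 3 for sgGal4. In 16 of 17 tables the region with the highest ratio to sgGal4 lay in the β-globin cluster, with a log2 ratio of 5.5 to 9.67 at its highest region in each of the 17 tables. The log2 ratio is that of the mean deposited level of the guide libraries to the mean of the sgGal4 libraries. The tables were normalised separately, so ratios set side by side across tables are a description.

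Sequences of 4 of the 10 places are given because the results turn on them or because they hold the binding motifs that erythroid factors share. They are the KLF1 region of the sgHBB table (chr19:12995837-12996136, minus strand), the BACH1 coding exon region as listed in the sgHBB table (chr21:30693604-30693903, plus strand), the BACH1 intronic region (chr21:30568649-30568948, plus strand) and the RUNX1 intronic region (chr21:36430903-36431202, minus strand), all on hg19 and read on the gene's strand. Capitals mark matches to AGATAA, a sequence that GATA factors bind. They also mark CCACCC, which KLF factors bind, and TGAGTCA, the core of sites for NFE2 and AP-1. Both strands were searched, so some capitals show the reverse complement.
KLF1 exon and intron: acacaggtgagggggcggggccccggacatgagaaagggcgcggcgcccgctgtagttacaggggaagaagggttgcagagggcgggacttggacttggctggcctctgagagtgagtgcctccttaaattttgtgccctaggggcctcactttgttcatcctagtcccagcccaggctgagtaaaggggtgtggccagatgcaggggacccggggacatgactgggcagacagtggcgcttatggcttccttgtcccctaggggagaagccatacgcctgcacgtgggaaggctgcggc
BACH1 coding exon: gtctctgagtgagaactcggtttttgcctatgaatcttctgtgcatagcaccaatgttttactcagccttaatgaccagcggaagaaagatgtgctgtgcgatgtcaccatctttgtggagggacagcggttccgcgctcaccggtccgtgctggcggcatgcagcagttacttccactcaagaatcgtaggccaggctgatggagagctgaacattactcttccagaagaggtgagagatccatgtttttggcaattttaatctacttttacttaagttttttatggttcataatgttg
BACH1 intron: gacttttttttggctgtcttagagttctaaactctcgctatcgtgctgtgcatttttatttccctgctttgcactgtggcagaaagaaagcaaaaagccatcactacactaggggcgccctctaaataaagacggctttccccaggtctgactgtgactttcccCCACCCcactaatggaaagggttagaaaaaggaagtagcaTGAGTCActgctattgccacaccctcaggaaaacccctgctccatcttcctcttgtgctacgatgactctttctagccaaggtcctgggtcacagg
RUNX1 intron: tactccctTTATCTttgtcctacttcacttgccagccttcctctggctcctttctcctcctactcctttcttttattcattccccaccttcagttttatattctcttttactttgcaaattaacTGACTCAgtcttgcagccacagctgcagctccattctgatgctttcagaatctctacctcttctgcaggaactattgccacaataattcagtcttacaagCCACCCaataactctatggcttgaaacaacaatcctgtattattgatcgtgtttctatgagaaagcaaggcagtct
The RUNX1 region held 1 match to each of the 3 motifs, and the BACH1 intronic region held 1 CCACCC and 1 TGAGTCA. The KLF1 region and the BACH1 coding exon held no match in this window. Among 44682 regions joined over the tables, 17.26% held AGATAA, 28.11% CCACCC and 8.93% TGAGTCA. Of the places not printed, the ZBTB7A region held 2 CCACCC matches, the NFE2L1 region beyond the gene 1 CCACCC, the BACH1 promoter region 1 TGAGTCA and the NFE2 region 1 AGATAA. The remaining NFE2L1 and RUNX1 places held none. GC content ran from 41.33% at the RUNX1 intronic region to 77.33% at the RUNX1 region near its proximal start, around a median of 51.67% for the joined regions. A motif match describes the sequence and does not show that a factor binds there.

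One of the 31 regions was raised over sgGal4, the KLF1 region in the sgHBB table. A region counted as raised when its log2 ratio was 1 or more and limma, adjusted by Benjamini-Hochberg over the table's regions, gave a p below 0.05. Over all 17 tables, 0.85% of regions were raised and 8.44% were lowered (log2 ratio of -1 or below, same p), and none of the 31 was lowered. At an unadjusted p below 0.05 limma found the same single region, against 25.4% of all regions. Standard errors given below are those of the limma difference of mean log2 levels. The 30 other regions had limma adjusted p-values of 0.258 to 0.993. The 31 had a median log2 ratio of 0.36, against 0.08 for all regions, and 7 of them (22.6%) reached a ratio of 1, against 17.3% of all regions. Without the BACH1 coding exon, which contributed 17 entries of a single place, the median of the 14 others was 0.92. Each of their places was listed in only 1 to 3 tables. Which regions were listed may depend on high guide libraries, so these medians do not show a rise at the regulator genes. All 31 carried the authors' tag for regions outside their named classes.

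**Figure D1:**
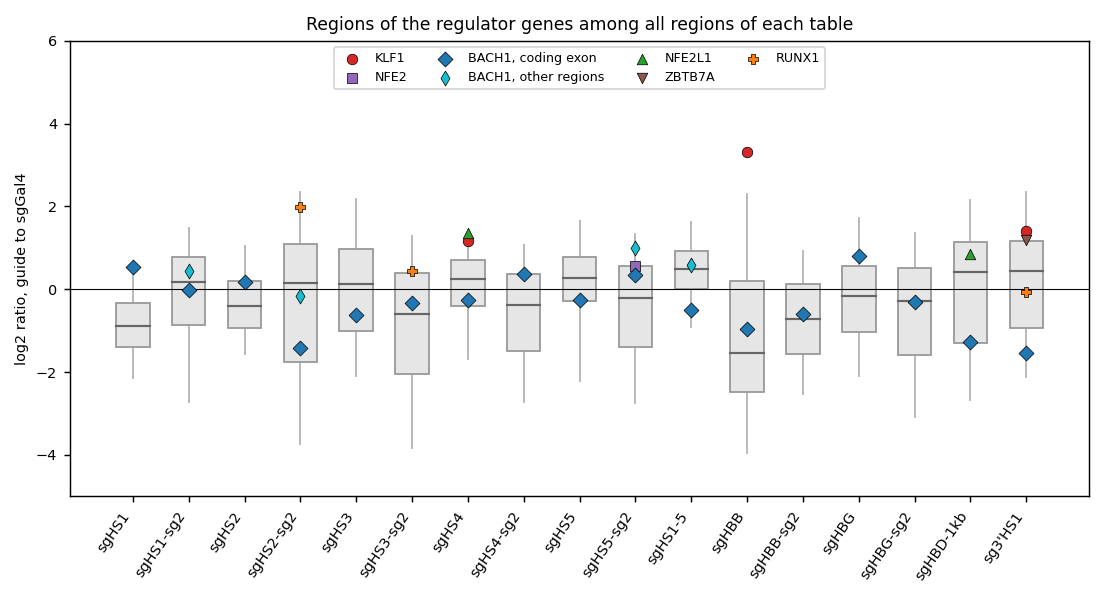
Log2 ratio of guide to sgGal4 (vertical axis) for the 31 regions of the regulator genes in each of the 17 tables (horizontal axis). Grey boxes give the 25th to 75th percentile of all regions of the table with the median as a line, and grey whiskers the 5th to 95th percentile. The KLF1 point of the sgHBB table, at 3.31, lies above the whisker, and the BACH1 coding exon appears in every table between -1.55 and 0.80.

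KLF1 was listed in 3 tables, always at the same place inside the gene. The region lay 2028 bp downstream of the KLF1 start on chromosome 19. It covered the last 6 bases of exon 2, 256 bases of the intron between exons 2 and 3, and the first 38 bases of exon 3 of 3. In the sgHBB table the single guide library held 91 reads of 88233 there, or 103 per 100000 reads in listed regions (exact 95% interval 83.1 to 127). The sgGal4 libraries held 5, 10, 0 and 0 reads, or 11.9, 13.4, 0 and 0 per 100000. The guide library therefore lay above every sgGal4 library, as did 18.7% of the regions of that table, but its excess was among the largest: the log2 ratio of 3.31 ranked 108 of 5164. The count of 0 in sgGal4 replicates 3 and 4 has exact 95% upper limits of 48.8 and 50.2 per 100000, below the guide library. These intervals and limits cover counting error only.

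The limma difference for KLF1 in the sgHBB table was 3.32 on the log2 scale with a standard error of 0.71 and an adjusted p of 0.00915. There, 3.81% of regions were raised, and the median region had a log2 ratio of -1.53, so KLF1 stood 4.84 above it. With 1 sgHBB library the test takes its spread from sgGal4 alone, and the difference has no replicate check on the guide side. The limma call was lost without sgGal4 replicate 3 (3.27, adjusted p = 0.0729), without replicate 4 (3.33, adjusted p = 0.0689), with levels centred on each library's median (4.55, adjusted p = 0.0759) and on recovered reads (4.01, adjusted p = 0.424, and 3.83, adjusted p = 0.289, with pseudocounts of 1 and 10 CPM), while the ratio stayed above 3 in each of these. The other HBB guide, sgHBB-sg2, had no listed region near KLF1.

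In the sg3'HS1 table the KLF1 place had 17 and 4 reads in the guide libraries, or 11.5 and 13.6 per 100000. The same sgGal4 reads of 5, 10, 0 and 0 came to 8.35, 9.34, 0 and 0 per 100000 there. Both guide libraries lay above all 4 of sgGal4, by less than the counting intervals, and 16% of that table's regions did the same. The log2 ratio was 1.42 with a standard error of 0.75 and a limma adjusted p of 0.258, in a table where 0.00933% of regions were raised. In the sgHS4 table the guide libraries held 20 and 5 reads (8.96 and 7.89 per 100000), and sgGal4 held 2, 6, 0 and 0 (3.1, 5.13, 0 and 0 per 100000). Again neither guide library overlapped sgGal4, as for 8.82% of regions. The log2 ratio was 1.16 with a standard error of 0.56 and a limma adjusted p of 0.496, beside 0.00932% of regions raised. On recovered reads with a pseudocount of 1 CPM it was 1.98 (limma adjusted p = 0.562). The share of reads in the guide libraries was 9.04 times that in sgGal4 in the sgHBB table, 2.25 times in the sgHS4 table and 1.51 times in the sg3'HS1 table.

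**Figure D2:**
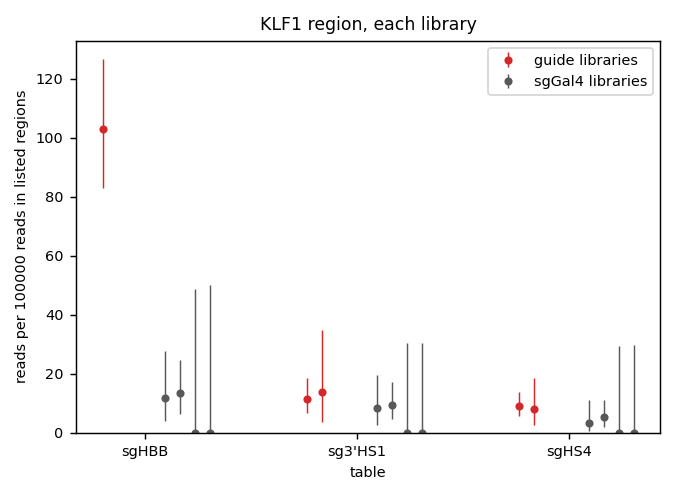
Reads in the KLF1 region per 100000 reads in listed regions (vertical axis) for each library of the 3 tables that list it (horizontal axis), with exact 95% binomial intervals for counting error. The sgHBB library stands at 103 while the sgGal4 libraries of that table stand between 0 and 13.4, and the 4 guide libraries of the other tables stand between 7.89 and 13.6.

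BACH1 was the only one of the 8 genes listed in every table. All 17 entries of its coding exon overlap. As listed in the sgHBB table, the region covered 232 coding bases and 68 intron bases of BACH1, 5696 bp upstream of an alternative start inside the gene. This place was among the strongest in the non-targeting control: only 0.13% to 0.593% of the regions of each table had more sgGal4 reads. The sgGal4 libraries held 32, 58, 2 and 2 reads there in 16 tables, and 32, 58, 2 and 1 in the sgHS1 table, whose region is shifted by a few bases.

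The ratio of the BACH1 exon to sgGal4 was above 0 on the log2 scale in 5 tables and below 0 in 12, with a median of -0.30. The median region of a table lay between -1.53 (sgHBB) and 0.48 (sgHS1-5), so 0 is not the common level of each table. Less the median of its table, the exon ran from 1.42 in sgHS1 to -1.98 in sg3'HS1. In sgHS4, sgHS5 and sgHS1-sg2 the ratio lay just below 0 (-0.26, -0.25 and -0.03) and the limma difference just above it (0.02, 0.22 and 0.26). The ratio was highest in the sgHBG table at 0.80 (standard error 0.63, limma adjusted p = 0.335). There the 4 guide libraries held 31, 4, 64 and 94 reads, or 46.2, 22.4, 109 and 88 per 100000, against 61.3, 61.9, 21.7 and 22.5 for sgGal4. sgHBG replicates 3 and 4 lay above all of sgGal4 and replicates 1 and 2 lay within its range, so the groups overlapped. Of all regions of the sgHBG table, 2.57% were raised and 9.37% lowered.

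The BACH1 exon was lowest in the sg3'HS1 table, at a log2 ratio of -1.55 (standard error 0.87, limma adjusted p = 0.373). The guide libraries held 5 and 3 reads, or 3.38 and 10.2 per 100000, and sgGal4 53.5, 54.2, 16.5 and 16.5 per 100000. Every guide library was below every sgGal4 library, as in 17.9% of that table's regions. The ratio was also -1 or below in the sgHS2-sg2 table (-1.42, limma adjusted p = 0.47) and in the sgHBD-1kb table (-1.26, limma adjusted p = 0.268). The sgHS2-sg2 library had 9.34 per 100000, under all sgGal4 libraries (19.3 to 63.2), as did 23.9% of that table's regions. The sgHBD-1kb libraries had 4.26 and 13 per 100000, under all sgGal4 libraries (17 to 55.7), as did 19.1% of regions. The sgHBB library was also below all of sgGal4 (39.3% of regions there), and both sgHS4-sg2 libraries were above (17.6% of regions there). None of the 17 entries passed the test, while 0% of regions were lowered in the sg3'HS1 and sgHS2-sg2 tables and 14.6% in the sgHBD-1kb table. Leaving out the shallow sgGal4 replicates 3 and 4 gave a ratio of -1.78 for sgHBD-1kb. Since replicates 1 and 2 count as 1 sample, that leaves 1 sgGal4 sample without scatter. Only the ratio is therefore given for this setting, here and below.

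Replicates of 1 guide could differ as much as guides did at the BACH1 exon. The 6 sgHS1-5 libraries held 40, 51, 2, 7, 1 and 0 reads, or 20.3, 14.7, 9.56, 34.2, 0.476 and 0 per 100000. Replicates 5 and 6 are the low ones, replicate 3 lies just under the sgGal4 range of 10.9 to 36.2, and the other libraries lie within it. The 2 sgHS1 libraries held 212 and 50.2 per 100000, and the first of them is above all 4 sgGal4 libraries (15.4 to 80.4) while the other is among them. Ordered by ratio, no table differed from its neighbour by more than 0.34, and the standard errors ran from 0.52 to 0.87. Neighbours in an ordered list lie close by construction, so these gaps do not show whether the guides differed. The ends of the list were 0.80 in the sgHBG table and -1.55 in the sg3'HS1 table. A difference between guides was not tested. By the share of reads alone, the BACH1 exon was below sgGal4 in 13 tables and above it in 4, from 0.0919 times in sg3'HS1 to 2.18 times in sgHS1.

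**Figure D3:**
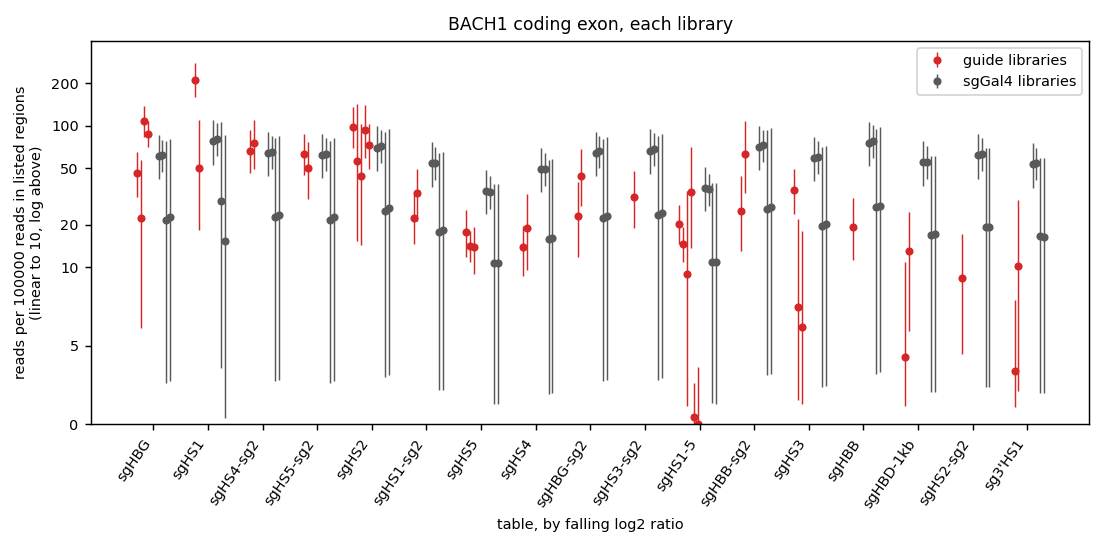
Reads in the BACH1 coding exon region per 100000 reads in listed regions (vertical axis, linear to 10 and logarithmic above) for each library of the 17 tables, ordered by falling log2 ratio (horizontal axis), with exact 95% intervals for counting error. The sgGal4 points stay between 10.7 and 80.4, while guide libraries run from 0 in the sgHS1-5 table to 212 in the sgHS1 table.

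Regions elsewhere whose ratio, less the median of the table, followed that of the BACH1 exon most closely over at least 8 tables lay near TECR (chromosome 19, 14676076 to 14676375, r = 0.94 over 17 tables), EPS8L2 (chromosome 11, 727910 to 728209, r = 0.94 over 8 tables) and B3GNT9 (chromosome 16, 67183458 to 67183757, r = 0.937 over 17 tables). They were the highest of 4706 regions compared. All share the same guide and sgGal4 libraries, and the correlations are a description.

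BACH1 had 2 further places. The promoter region (chr21:30671035-30671334, 58 bp upstream of a start, with 32 untranslated bases) was listed in the sgHS5-sg2 table alone. Its guide libraries held 12 and 11 reads (20 and 27.5 per 100000), and sgGal4 held 4, 7, 0 and 1 (7.8, 7.66, 0 and 11.3 per 100000). The guide libraries lay above all of sgGal4, as for 18.7% of regions there, and the log2 ratio was 1.01 with a standard error of 0.60 and a limma adjusted p of 0.328. On recovered reads with a pseudocount of 1 CPM it was 1.81 (limma adjusted p = 0.577). Of all regions there, 0.116% were raised. The intronic region printed above, 2330 bp downstream of a far upstream start, had log2 ratios of -0.16 in the sgHS2-sg2 table, 0.43 in sgHS1-sg2 and 0.58 in sgHS1-5. In these 3 tables its sgGal4 reads were 0, 6, 2 and 2, and guide and sgGal4 libraries overlapped. The limma adjusted p-values were 0.986, 0.731 and 0.629. Without sgGal4 replicates 3 and 4 the ratio of the sgHS1-5 entry rose to 2.42.

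NFE2 was listed near its start in the sgHS5-sg2 table (chr12:54689511-54689810, 116 bp upstream of a start, 34 untranslated and 266 intron bases). The guide libraries held 24 and 11 reads, or 40.1 and 27.5 per 100000. The sgGal4 libraries held 5, 12, 2 and 4 reads, or 9.75, 13.1, 21.6 and 45.1 per 100000. The guide libraries lay above 3 of the sgGal4 libraries and below the last one, and the log2 ratio of 0.57 (standard error 0.63, limma adjusted p = 0.639) did not pass. Without sgGal4 replicates 3 and 4 the ratio was 1.40. A region of the sg3'HS1 table (chr12:54694789-54695088, log2 ratio 0.76) overlapped the upstream end of NFE2. It was not assigned to NFE2 by the nearest-start rule.

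NFE2L1 had regions in 2 tables, on either side of the gene. The upstream one (chr17:46125209-46125508, 332 bp before the start) appeared in the sgHS4 table with 19 and 4 guide reads (8.51 and 6.32 per 100000). The sgGal4 libraries held 0, 3, 0 and 0 (2.56 per 100000 in replicate 2). The guide libraries lay above all of sgGal4, as for 8.82% of that table's regions. The log2 ratio was 1.35 with a standard error of 0.68 and a limma adjusted p of 0.498, and 0.00932% of regions there were raised. On recovered reads it was 3.34 and 2.36 with pseudocounts of 1 and 10 CPM (limma adjusted p = 0.185 and 0.292). The other (chr17:46141545-46141844, 5456 bp from the nearest start and past the end of the gene) appeared in the sgHBD-1kb table with 11 and 3 guide reads (11.7 and 4.32 per 100000) and 0, 0, 0 and 2 sgGal4 reads. The 2 reads of the shallow replicate 4 equal 17.1 per 100000, above both guide libraries, and the ratio of 0.84 had a standard error of 1.01 (limma adjusted p = 0.429). Of all regions there, 5.27% were raised. Without sgGal4 replicates 3 and 4 the ratio was 3.32, so its size depends on the shallow control libraries.

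ZBTB7A was listed in the sg3'HS1 table (chr19:4067605-4067904, 858 bp upstream of its start, outside the gene). The sgGal4 libraries held 1, 6, 0 and 0 reads. One guide library held 17 reads (11.5 per 100000) and the other 0, with an exact upper limit of 12.55 per 100000. The first lay above all of sgGal4 and the second was level with its empty libraries, so the groups overlapped. The log2 ratio was 1.19 with a standard error of 0.83 and a limma adjusted p of 0.502.

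RUNX1 had 3 regions at 2 places. Near the proximal start (chr21:36262358-36262657, 420 bp upstream, in an intron of longer transcripts) the sgHS3-sg2 library held 22 reads (34.3 per 100000) against 2, 15, 3 and 4 for sgGal4 (4.18, 17.7, 35 and 48.3 per 100000). The guide library lay within the sgGal4 range, at a log2 ratio of 0.44 (limma adjusted p = 0.744). In the sg3'HS1 table the ratio was -0.07 (limma adjusted p = 0.92), or 1.02 without sgGal4 replicates 3 and 4. The intronic region with the 3 motifs, 9412 bp upstream of the distal start, was listed in the sgHS2-sg2 table with 25 reads (23.3 per 100000) against 1, 4, 1 and 0 (1.93, 4.36, 9.68 and 0 per 100000). The guide library exceeded all of sgGal4, as did 29.3% of that table's regions. Its log2 ratio of 1.99 ranked 714 of 8573, with a standard error of 0.92 and a limma adjusted p of 0.258, and 0% of the regions of that table were raised.

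**Figure D4:**
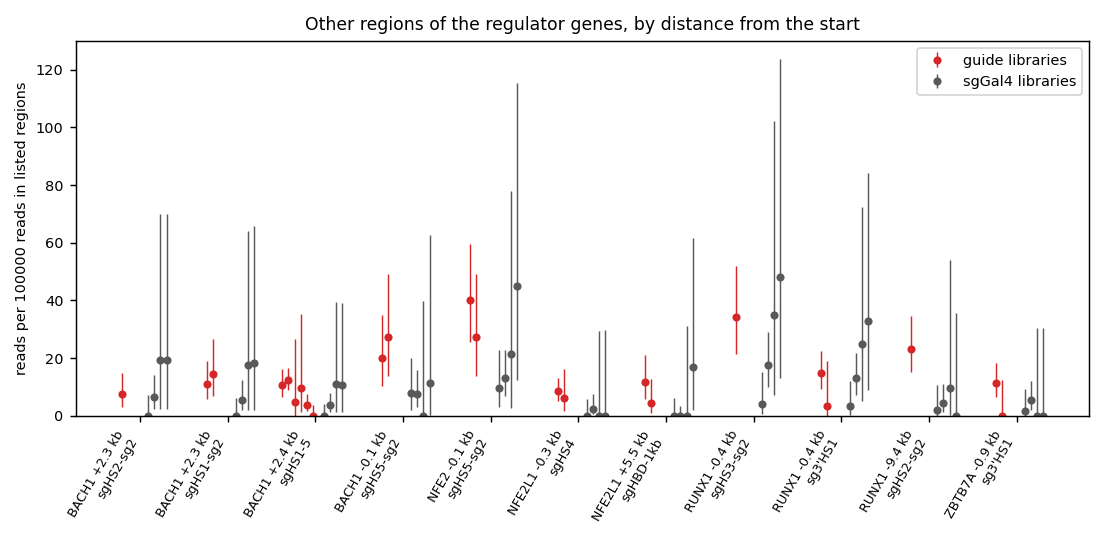
Reads per 100000 reads in listed regions (vertical axis) in each guide and sgGal4 library for the 11 other entries near BACH1, NFE2, NFE2L1, RUNX1 and ZBTB7A, named by distance from the nearest start in kb and by table (horizontal axis), with exact 95% intervals for counting error. The guide point of the RUNX1 region farthest from its start stands at 23.3 with sgGal4 at 0 to 9.68, and the wide intervals of the 2 shallow sgGal4 libraries reach over most guide points.

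BCL11A and MYB had no listed region in their gene bodies in any of the 17 tables. For BCL11A, whose erythroid enhancer lies in an intron of the gene, the nearest listed region was 27204 bp from the gene, and for MYB it was 12032 bp away. The 10 kb limit fell between the RUNX1 region at 9412 bp (log2 ratio 1.99) and a region 11158 bp upstream of ZBTB7A in the sgHS4 table (0.11), followed by a RUNX1 region at 14568 bp in the sg3'HS1 table (1.84, limma adjusted p = 0.251). Beyond the limit, regions nearest to the starts of these genes passed the test in the sgHBD-1kb table for MYB (45428 bp downstream of a start, 2.50, limma adjusted p = 0.0194) and for RUNX1 (45518 bp downstream of a start, 2.48, limma adjusted p = 0.0194), beside 5.27% of that table's regions raised. A region 88038 bp upstream of BCL11A was listed in all 17 tables with log2 ratios of -2.88 to -0.46, and was lowered in 4 of them, sgHBB, sgHBB-sg2, sgHBD-1kb and sgHS5-sg2, with limma adjusted p-values of 0.0153 to 0.0394. There, 29.5%, 24.9%, 14.6% and 16.7% of all regions were lowered. At these distances the nearest start is only a label.

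Partners and relatives of the 8 regulators gave 263 regions, near 46 of 50 genes. Of these 4 were raised and 13 lowered, beside 0.85% raised and 8.44% lowered among all regions of the 17 tables. Their median log2 ratio was 0.54, against 0.08 for all regions. Which of them were listed may depend on high guide libraries. The medians here and for the lists below therefore do not show a rise near these genes. The 6 CNC and small MAF bZIP genes, the dimer partners of NFE2 and BACH1 and their relatives, had 22 regions, a median of 0.60 and none raised or lowered. Of 12 genes of NuRD, the chromatin remodelling and deacetylase complex that BCL11A and ZBTB7A recruit, 11 had 61 regions with a median of 0.60. Among them 3 were raised, all in the sgHBD-1kb table, where 5.27% of all regions were raised, and 2 were lowered. The raised ones were at the start of CHD4, the NuRD ATPase (1.96, limma adjusted p = 0.033), upstream of MBD2, a methyl-CpG binding subunit, by 78 bp (2.08, limma adjusted p = 0.0385), and 8998 bp from a start of GATAD2A, a scaffold subunit (2.96, limma adjusted p = 0.0243). Both lowered entries were another place near GATAD2A, 1126 bp from a start, in the sgHBB table (-2.74, limma adjusted p = 0.024) and in the sgHBD-1kb table itself (-2.32, limma adjusted p = 0.031), so regions near GATAD2A were called in both directions there.

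Of 14 other genes linked to fetal globin repression, 13 had 91 regions with a median of 0.29, 1 raised and 5 lowered. The raised one lay 8462 bp upstream of SOX6, a partner of BCL11A, in the sgHS3-sg2 table (2.995, limma adjusted p = 0.0497), where 0.619% of regions were raised. The 5 lowered entries were at 2 places near EHMT1, a histone H3 lysine methyltransferase (-2.53 to -1.86), in the sgHBB, sgHBD-1kb, sgHBG-sg2, sgHS3 and sgHS5-sg2 tables. Paralogs of the regulators and CBFB, the RUNX partner, had 71 regions near 13 of 14 genes, with a median of 0.52, none raised and 6 lowered. All 6 lowered entries were 1 place, 9612 bp from a start of RUNX3, at log2 ratios of -3.25 to -2.51, in the sgHBB, sgHBB-sg2, sgHBG-sg2, sgHS1-sg2, sgHS3-sg2 and sgHS5-sg2 tables. Beside the shares given above, 20.3% of regions were lowered in the sgHBG-sg2 table, 4.72% in sgHS3, 10.1% in sgHS1-sg2 and 27.2% in sgHS3-sg2. The 4 remaining genes had 18 regions near 3 of them with a median of 1.31, none raised or lowered. The lowered entries fell at few places, listed in tables that use the same sgGal4 libraries. Over all lists, the count of 4 raised entries fell to 1 without either sgHBD-1kb library or without sgGal4 replicate 3, and 2 without sgGal4 replicate 1.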

How the data were processed

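CAPTURE-ChIP-seq of K562 cells was analysed in 46 of 61 samples. The other 15 were not analysed here. Per the labels and the submitters' processing notes, reads matching a single place in hg19 were kept, and Bowtie 1.0.0 and Picard were named. The deposited tables give log2 levels per library and 300 bp region. How the authors normalised them is not given in the sources used here. Levels in each column were a straight function of log2 of whole numbers, from which reads were recovered (100% whole within 0.01, or 0.01% of the level). The log2 ratio equals the authors' deposited M value to within 1.392e-08. Because levels of empty libraries differ with depth, it is not a ratio of reads.

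Each table was tested with limma 3.58.1 (R 4.3.3), Benjamini-Hochberg adjusted over its regions, at an adjusted p below 0.05 and a log2 ratio of 1. The script was tested on simulated data. sgGal4 replicates 1 and 2 entered as their mean (chi-square per degree of freedom 0.906 to 1.04, other sgGal4 pairs 1.29 to 6.45). Another 3 guide pairs came close (1.04 to 1.06) but differed and were kept apart. Intervals are exact Clopper-Pearson at 95%. All 8 genes are named, with every region, the highest and lowest table and every call, and the list genes with a call. The genes and lists were chosen with earlier results of these data known. Alternatives were other scalings of the levels, recovered reads with pseudocounts of 1 and 10 CPM, a variance trend, a stricter p, distances of 2 and 50 kb, a replicate block and libraries left out.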

Additional observations from a re-analysis of the deposited data

How the results depend on the processing

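With 1 of the 31 regions raised, the count fell to 0 on recovered reads with a pseudocount of 1 or 10 CPM, with levels centred on each library's median, and within 2 kb of a start, which leaves the KLF1 region out. It was 3 within 50 kb. Leaving out 1 library at a time gave 0 to 1, with 0 without sgGal4 replicate 3 or 4. Without sgGal4 replicates 3 and 4 together, 1 sgGal4 sample was left, so no count of the 31 regions is given for that setting. The tables with 1 guide library, KLF1's among them, could then not be tested at all. A fit with the replicate number as a block, possible in the 14 tables with replicates, counted sgGal4 replicates 1 and 2 separately. It raised 2, the sgHS4 region of NFE2L1 (limma adjusted p = 0.0451) and KLF1, the latter from the unblocked fit. It lowered 1, the BACH1 exon in sgHBD-1kb (limma adjusted p = 0.00128). The sgHS4 and sgHBD-1kb tables have 2 guide libraries each, so the block compares these with sgGal4 replicates 1 and 2 only. Same-numbered libraries did not vary together (correlations of -0.25 to 0.219, 5 of 36 highest with their own number), so the numbers pair nothing. Over the partner lists, 4 raised regions became 2 with a pseudocount of 10 CPM, 2 within 2 kb, 0 at an adjusted p of 0.01, 9 with a variance trend, 14 with centred levels, 36 with the block and 32 without sgGal4 replicates 3 and 4. The last of these counts rests on 1 sgGal4 sample without scatter, so no conclusion is drawn from it. Leaving out 1 library gave 1 to 4 over the partner lists, with 1 without either sgHBD-1kb library or sgGal4 replicate 3 and 2 without sgGal4 replicate 1. Of the alternatives chosen after seeing the data, counting sgGal4 replicates 1 and 2 separately gave 11. The share of all regions raised was not counted under the alternatives. A rise in these counts can therefore not be told from a change in calling over whole tables. No alternative that could be fitted turned the sign of the KLF1 entry of the sgHBB table, the only called one of the 31. The called partner entries were not checked for sign. The cause of these changes was not tested. With 0 to 10 sgGal4 reads at most of these regions outside the BACH1 exon, depth limits what differences could be detected.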
